A study of Mus musculus with 2 samples.

Results

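Glycolysis splits glucose into pyruvate in the cytosol, and lactate dehydrogenase converts pyruvate to lactate while regenerating the NAD+ that the pathway consumes. The retina is known for producing lactate even when oxygen is present. Photoreceptors are the main site of this aerobic glycolysis, whereas Müller glia, which span the retina, are usually described as drawing on glucose and exchanging lactate with the neurons around them. Several steps are run by alternative isozymes encoded by separate genes, and the isozyme a cell uses is a feature of its type. The mRNAs of 10 enzymes of the pathway are described here, Hk2, Aldoa, Aldoc, Tpi1, Gapdh, Pgk1, Eno1, Pkm, Ldha and Ldhb, taken by symbol from the 30905 genes listed in both count matrices. All 10 were found, and each was measured in both libraries.

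Whole retinas of mouse pups at postnatal day 7 were digested with papain and profiled by droplet single-cell RNA sequencing of the 3′ ends of transcripts, in which each captured molecule carries a unique molecular identifier (UMI). The Mettl3-CKO library pooled 2 retinas from 2 Mettl3floxed/floxed pups carrying Six3-Cre, a driver that expresses Cre recombinase in retinal progenitor cells (RPCs) from early eye development, the source of retinal neurons and Müller glia but not of microglia, which enter the retina from outside. The study shows efficient loss of the protein by staining for the central retina, whereas whole retinas were sequenced, so cells that kept Mettl3 may be among the Mettl3-CKO cells. The control library pooled 2 retinas from 2 control pups of the same litter; the labels give these only as control, so the alleles they carried cannot be stated. METTL3 is the methyltransferase that places N6-methyladenosine on mRNA. Each group was 1 library, so no replicate error exists and no test was possible: every interval given is a 95% interval of counting error, and every difference is between these 2 libraries.

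The 3994 control cells analysed held 22181683 UMIs and the 3109 Mettl3-CKO cells 20830028 UMIs, with medians of 4520.5 and 5207 non-mitochondrial UMIs per cell. Cells were grouped into 19 clusters without using the 10 genes, and 14 clusters were given one of 9 class names from marker genes (rod, cone, photoreceptor and bipolar precursor, neurogenic, RPC, Müller, bipolar, amacrine and microglia), each written here as "-like". These classes held 5124 cells, and 1979 cells in 5 clusters stayed unnamed. Of the analysed barcodes, 5 occurred in both libraries. Mettl3 itself was at 39.5 CPM (UMIs per 1000000 non-mitochondrial UMIs of the library or class) in the control and 33.1 CPM in the Mettl3-CKO library; tags at the 3′ end can come from a transcript that lost an internal exon, so this does not check the deletion. Xist UMIs were seen in 30 control and 1751 Mettl3-CKO cells, and a Y-linked UMI without Xist in 2512 and 725 cells. The Mettl3-CKO pool therefore held cells of both sexes and the control pool almost only male cells. Values of cells split by these UMIs are given where they bear on a result.

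The members lie on 6 mouse chromosomes (coordinates of GRCm38, GENCODE vM21). Hk2 (ENSMUSG00000000628, chr6:82725025-82774454, minus strand) encodes a hexokinase, which phosphorylates glucose. Aldoa (ENSMUSG00000030695, chr7:126795234-126800751, minus) and Aldoc (ENSMUSG00000017390, chr11:78322968-78327781, plus) encode aldolases, which split fructose bisphosphate, and Tpi1 (ENSMUSG00000023456, chr6:124810586-124814296, minus) interconverts the products. Gapdh (ENSMUSG00000057666, chr6:125161715-125166467, minus) makes NADH, and Pgk1 (ENSMUSG00000062070, chrX:106187100-106203699, plus) makes the first ATP of the pathway. Eno1 (ENSMUSG00000063524, chr4:150236721-150248879, plus) encodes enolase, and Pkm (ENSMUSG00000032294, chr9:59656368-59679375, plus) pyruvate kinase. Ldha (ENSMUSG00000063229, chr7:46841475-46855627, plus) and Ldhb (ENSMUSG00000030246, chr6:142490249-142507957, minus) encode the lactate dehydrogenase subunits usually associated with lactate formation and lactate use. Genes on the opposite strand overlap Aldoa (Fam57b), Tpi1 (Spsb2) and Gapdh (Iffo1); these held 5533, 1237 and 1199 UMIs, against 32485, 23704 and 93705 for the members. The strand setting of the counting is not given in the sources used here, so reads of these pairs may not be fully separated. A second row with the symbol Aldoa (ENSMUSG00000114515) held 5 UMIs and was not added. Near copies drew few UMIs, with 45 for Eno1b, 12 for Ldhal6b and 7 for Aldoart2. Pkm counts do not separate its M1 and M2 splice forms.

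Glycolytic genes are textbook targets of hypoxia-inducible factor (HIF), whose core recognition sequence is ACGTG or GCGTG. The promoters that RefSeq gives for the members in GRCm38.p6 (250 bases before to 50 after each start, 17 windows over all 10 members) were searched for these letters on both strands. Of the 17 windows 14 held at least 1 match (82.4%). By gene, 9 of the 10 members had a match in at least 1 window, but no share by gene was taken over all genes. Among all 32851 mouse promoter windows of this length, 43.8% held a match, 19.6% ACGTG and 32.4% GCGTG. Windows of one gene can overlap, so the same site can count in more than 1 window, as it did for Eno1 and Aldoa. CACGTG, itself present in 7.15% of promoters, contains ACGTG on both strands. Tpi1 had no match in its window, which says nothing about the factor, and a match is a string of letters, not a binding site. Any part of HIF in the member levels was not tested. One match upstream of the start is shown for 6 members in the direction of the gene, with the matching bases (or their reverse complement CACGT or CACGC) in capitals.
Ldha, chr7:46845744-46845772, plus strand: cggcccagcctaCACGTgggttcccgcac
Pgk1, chrX:106186938-106186966, plus strand: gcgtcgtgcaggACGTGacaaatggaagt
Pkm, chr9:59657140-59657168, plus strand: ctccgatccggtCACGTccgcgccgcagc
Eno1, chr4:150237099-150237127, plus strand: ggccgcctcggtCACGCtcttctattgga
Aldoa, chr7:126799364-126799392, minus strand: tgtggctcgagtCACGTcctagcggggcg
Hk2, chr6:82774490-82774518, minus strand: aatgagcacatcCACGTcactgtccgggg

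The first question was how much glycolytic mRNA each class contained in the control retina. A UMI stands for 1 captured molecule whatever the transcript's length, so levels are CPM of the non-mitochondrial UMIs of the class, with no division by length; capture efficiency may still differ between genes. Summed over the 10 members, Müller-like cells were highest at 13825 CPM (13688 to 13963), followed by bipolar-like cells at 12012 CPM (11852 to 12173) and amacrine-like cells at 11010 CPM (10718 to 11307). RPC-like cells held 9701 CPM, rod-like cells 9424 CPM, neurogenic-like cells 9080 CPM, cone-like cells 8030 CPM and precursor-like cells 7464 CPM. Microglia-like cells were lowest at 6353 CPM (6010 to 6710). Rod-like cells therefore did not have the highest summed level relative to the UMIs of their class. They also differed from other classes in which members made up the sum. These levels do not give the share of the library's member UMIs that each class held, which also depends on the class's total UMIs.

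**Figure D1:**
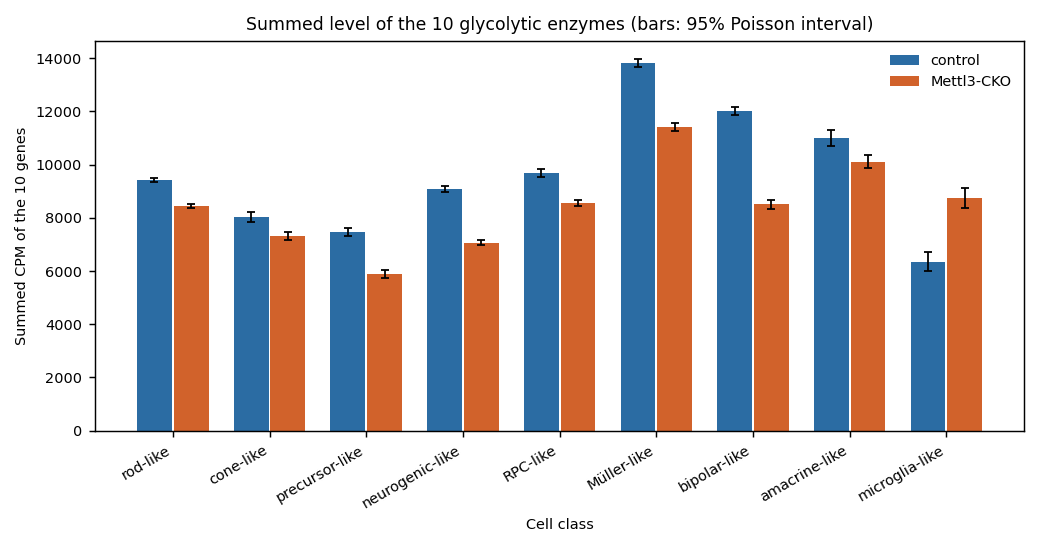
Summed level of the 10 genes in CPM of non-mitochondrial UMIs (vertical axis) by cell class, for the control and the Mettl3-CKO library; error bars are 95% Poisson intervals. The Mettl3-CKO bar is lower in 8 classes and higher in microglia-like cells, 8742 against 6353 CPM.

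Rod-like cells were an Ldha class. Ldha was at 3530 CPM (3477 to 3583) in control rod-like cells, the highest level of this gene in any named class, followed by precursor-like (2515 CPM), bipolar-like (2287 CPM), cone-like (1871 CPM), neurogenic-like (1351 CPM), Müller-like (1316 CPM), amacrine-like (1158 CPM), RPC-like (986 CPM) and microglia-like cells (495 CPM). Only the intervals of neurogenic-like and Müller-like cells overlapped between neighbours in this order. High Ldha was not particular to the rod-like class. It was at 3697 CPM (3608 to 3787) in unnamed cluster 2, above rod-like cells, and at 2769 CPM in unnamed cluster 5. The nearest marker list of both was rod. Unnamed cluster 3, nearest to the precursor list, was at 3010 CPM. Among named classes Aldoa was also highest in rod-like cells, at 1217 CPM (1186 to 1249), with cone-like cells (1144 CPM) within overlapping intervals. In contrast, rod-like cells had the lowest control levels among named classes of Eno1 (359 CPM), Pgk1 (219 CPM) and Hk2 (4.15 CPM), although the Eno1 and Pgk1 intervals overlapped those of microglia-like and the Hk2 interval that of precursor-like cells, and Tpi1 there (283 CPM) was within the interval of microglia-like cells, the lowest class (282 CPM). The members thus did not keep one ratio to each other from class to class.

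Müller-like cells were an Eno1 and Aldoc class. Eno1 reached 3494 CPM (3425 to 3563), 9.73 times its level in rod-like cells, and was next highest in RPC-like (2010 CPM) and neurogenic-like cells (1325 CPM). Aldoc was at 158 CPM (143 to 173) in Müller-like cells, 47.2 CPM in cone-like and 37.1 CPM in rod-like cells, and at most 7.8 CPM in the other named classes, with 0 UMIs in control amacrine-like cells and in microglia-like cells of both libraries. Those zeros allow up to 7.51 CPM in amacrine-like and 18.3 CPM in microglia-like cells. Among unnamed clusters it was at 40.9 CPM (32.1 to 51.5) in cluster 2 and 20.4 CPM in cluster 3, whose nearest marker lists were rod and precursor. The highest Aldoc of any cluster was in an unnamed cluster of 59 cells led by Ttr, Rgs5 and Crip1. Aldoc there was at 888 CPM (799 to 984) in 42 control cells and 304 CPM (232 to 391) in 17 Mettl3-CKO cells. In this cluster 5 of 6 astrocyte markers were raised, and the astrocyte list summed to 1996 CPM in the control and 2218 CPM in the Mettl3-CKO library. Pigment epithelium markers summed to 5475 and 618 CPM, and pericyte markers to 2254 and 213 CPM. The makeup of this cluster thus differed between the libraries, and the part of this in its Aldoc levels was not tested. Pgk1 was also highest in Müller-like cells (1030 CPM).

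Among neurons, Tpi1 (1340 CPM, 1287 to 1394) and Pkm (2085 CPM, 2019 to 2153) were highest in bipolar-like cells, and Gapdh was highest in amacrine-like cells at 4729 CPM (4539 to 4926). Pkm varied least of the 10 genes, apart from Aldoa, 2.54-fold from the highest to the lowest class. Hk2 was a low-abundance member whose class range was the widest among the genes with a UMI in every class. It was at 153 CPM (104 to 218) in microglia-like cells, 66.1 CPM (49.9 to 85.8) in cone-like and 54.9 CPM (36.2 to 79.9) in amacrine-like cells, and from 14.2 to 29.0 CPM in RPC-like, Müller-like, bipolar-like and neurogenic-like cells. In precursor-like and rod-like cells it was at 4.88 and 4.15 CPM. Ldhb was highest in microglia-like (663 CPM), Müller-like (471 CPM) and amacrine-like cells (393 CPM) and lowest in cone-like cells (100 CPM).

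**Figure D2:**
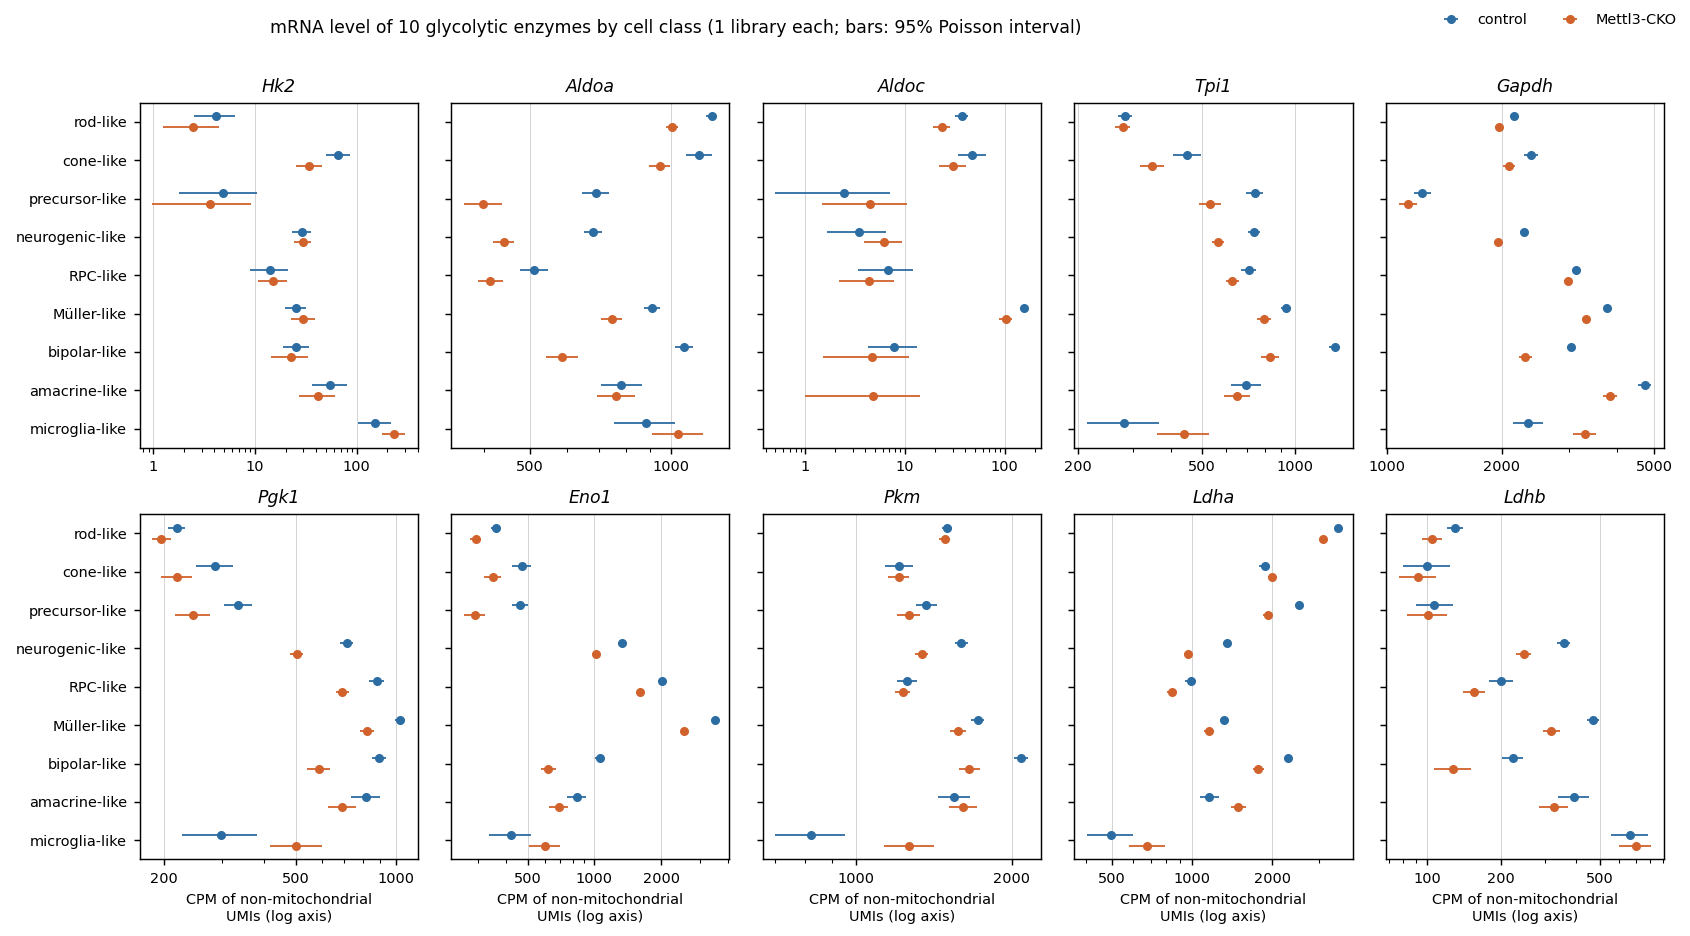
Level of each gene (CPM on a log axis, whose range differs between panels) in the 9 classes, for both libraries; bars are 95% Poisson intervals and a library with 0 UMIs has no point. Ldha is highest in rod-like and lowest in microglia-like cells, whereas Eno1 and Aldoc peak in Müller-like cells, where the control points are at 3494 and 158 CPM.

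Isozyme shares differed between photoreceptor, glial and microglial classes. Ldhb made up 3.55% (3.28 to 3.83) of Ldha and Ldhb UMIs in control rod-like cells, 5.09% in cone-like and 4.1% in precursor-like cells. It made up 8.84% in bipolar-like, 16.8% in RPC-like, 20.9% in neurogenic-like, 25.3% in amacrine-like and 26.4% (25.2 to 27.6) in Müller-like cells, and 57.3% (50.7 to 63.7) in microglia-like cells. The order runs from photoreceptors with almost only Ldha to microglia-like cells. A substantial Ldhb part was not confined to glia and microglia, as the amacrine-like share lay within the Müller-like interval. Aldoc was 14.7% (13.5 to 16.1) of aldolase A and C UMIs in control Müller-like cells, 3.96% in cone-like and 2.96% in rod-like cells, and at most 1.31% in the other named classes. In the Ttr-led cluster it was 48.1% (44.5 to 51.7).

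Hexokinase and enolase use also followed class. Hk2 was 93.9% (79.8 to 99.3) of Hk1 and Hk2 UMIs in microglia-like, 70.9% (61.8 to 79.0) in neurogenic-like and 50.5% (40.8 to 60.1) in cone-like cells, against 4.84% (2.98 to 7.38) in rod-like cells, which expressed Hk1 at 81.5 CPM. Cone-like and rod-like cells, both photoreceptors, thus differed widely in hexokinase. The precursor-like share of 85.7% rested on 7 UMIs and is not informative (42.1 to 99.6). In the control Eno1 was 98.3% or more of Eno1 and Eno2 UMIs in the other named classes (94.2% to 99.8% in the unnamed clusters), and 86.5% (84.9 to 87.9) in rod-like and 74.8% (70.9 to 78.4) in cone-like cells.

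**Figure D3:**
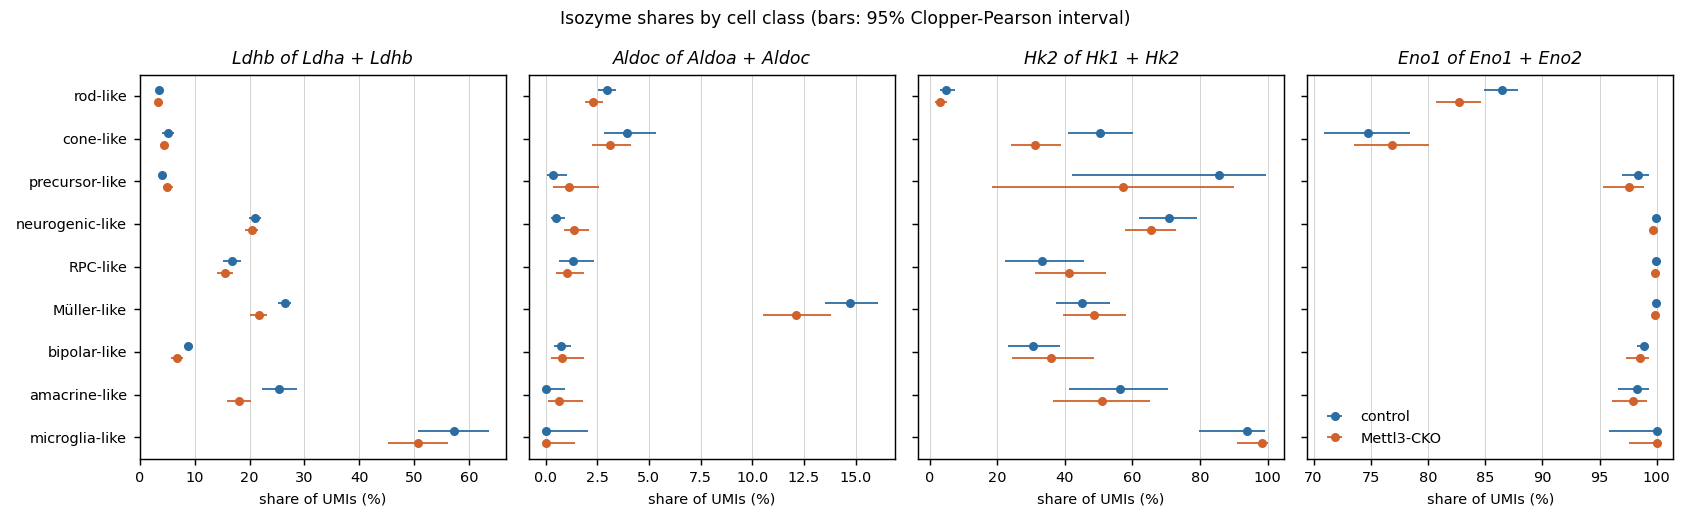
Share of one isozyme among the UMIs of a pair (horizontal axis, %; the Eno1 axis does not start at 0) by class and library, with 95% Clopper-Pearson intervals. Ldhb reaches 26.4% in control Müller-like cells and 3.55% in control rod-like cells, and the Mettl3-CKO points of Müller-like and amacrine-like cells lie to the left of the control points; without marked doublets the amacrine-like pair is 27.4% and 25.9%.

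In the Mettl3-CKO library the summed level was lower in each of the 8 retinal classes. The ratio to the control was 0.708 (0.691 to 0.726) in bipolar-like, 0.778 (0.764 to 0.791) in neurogenic-like, 0.790 (0.765 to 0.815) in precursor-like and 0.825 (0.811 to 0.839) in Müller-like cells. It was 0.883 in RPC-like, 0.896 in rod-like, 0.910 in cone-like and 0.918 (0.885 to 0.952) in amacrine-like cells. Microglia-like cells went the other way, 1.38 (1.28 to 1.48). Taking each gene as a log2 ratio of Mettl3-CKO over control, the median over the members was -0.65 in bipolar-like, -0.41 in precursor-like, -0.39 in neurogenic-like, -0.33 in cone-like, -0.27 in RPC-like, -0.26 in Müller-like, and -0.24 in rod-like and in amacrine-like cells, where 9 members had a ratio. The median over all genes with at least 100 UMIs in the class lay between -0.06 and 0.05 in every class. The members were thus lower by a modest amount where the median gene was level. The minimum of 100 UMIs was not applied to the member medians. These include ratios from few UMIs, such as that of Aldoc in precursor-like cells (8 UMIs).

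**Figure D4:**
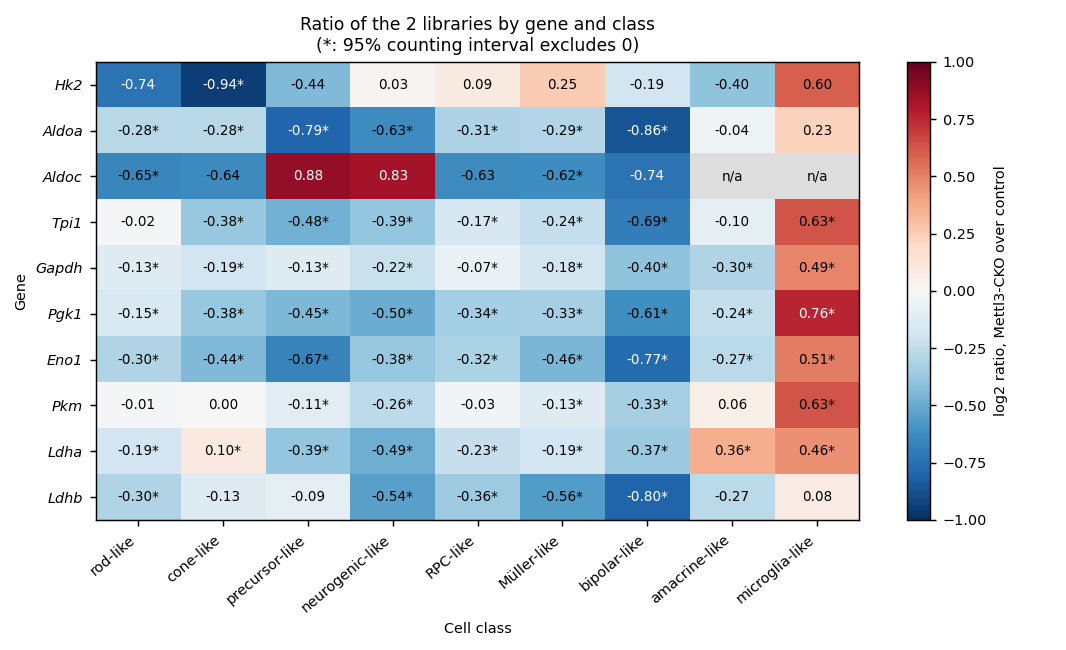
log2 ratio of Mettl3-CKO over control for each gene (rows) and class (columns); blue is lower in Mettl3-CKO, red is higher, and an asterisk marks a 95% counting interval that excludes 0. Eno1 is blue in 8 classes, from -0.77 in bipolar-like to -0.27 in amacrine-like cells, and the microglia-like column is red; grey cells have no ratio.

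A gene was counted as past the fold at a log2 ratio of 0.5 or more in size, among genes with at least 100 UMIs over both libraries of a class. In bipolar-like cells 5 of 8 members were lower past this fold, where 8.83% of 5037 genes were. In neurogenic-like cells 3 of 9 were lower (2.6% of 7684 genes), in precursor-like 2 of 8 (3.03%), in Müller-like 2 of 10 (3.55%), in rod-like 1 of 9 (1.87%) and in cone-like 1 of 9 (3.87%). In RPC-like and amacrine-like cells it was 0 of 8 in both, with a background of 2.62% and 4.74%. No member was higher past the fold in any of these 8 classes, where the share of all genes that were was 5.05% in rod-like, 7.76% in cone-like, 3.53% in precursor-like, 6.83% in neurogenic-like, 8.89% in RPC-like, 9.26% in Müller-like, 7.21% in bipolar-like and 6.87% in amacrine-like cells. At a log2 fold of 0.25 the members lower were 8 of 8 in bipolar-like (27.3% of all genes), 7 of 9 in neurogenic-like (12.6%), 5 of 8 in precursor-like (17.2%), 5 of 9 in cone-like (16.8%), 5 of 10 in Müller-like (15.4%), 4 of 8 in RPC-like (12.3%), 4 of 9 in rod-like (9.92%) and 3 of 8 in amacrine-like cells (20.2%), where 1 of 8 was higher (18% of all genes).

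Bipolar-like cells, a class named from 4 of 12 markers led by Isl1 and Trnp1, had the lowest median of the named classes. Unnamed cluster 13, of 249 cells with a median of 960 UMIs, was lower, at -0.86. The other unnamed clusters lay between -0.33 and -0.16. In bipolar-like cells Aldoa was at 1066 CPM in the control and 586 CPM in the Mettl3-CKO library, a log2 ratio of -0.86. Ldhb was at 222 and 127 CPM (-0.80), Eno1 at 1056 and 619 CPM (-0.77, -0.90 to -0.64), Tpi1 at 1340 and 831 CPM (-0.69) and Pgk1 at 893 and 586 CPM (-0.61). Gapdh (-0.40), Ldha (-0.37) and Pkm (-0.33) were lower by less, and the intervals of Hk2 and Aldoc, with 70 and 19 UMIs over both libraries, included 0. The bipolar-like cells of the libraries also differed in makeup: the summed bipolar markers were at 2402 and 1367 CPM, and ribosomal protein genes took 10.4% and 13.8% of UMIs. The part of these differences in the result was not tested; with ribosomal protein, mitochondrial and rod marker UMIs left out of the totals the median ratio was -0.59, and without marked doublets it was -0.48. The Ldha ratio was 0.13 when cells were named one by one from their own markers.

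Neurogenic-like and precursor-like cells, the stages between progenitors and neurons, came next among named classes. This order depends on the clustering. With each library clustered on its own the median was -0.33 in neurogenic-like, -0.26 in precursor-like and -0.47 in Müller-like cells. In neurogenic-like cells Aldoa was at 682 and 440 CPM (-0.63, -0.73 to -0.54), Ldhb at 358 and 246 CPM (-0.54), Pgk1 at 712 and 503 CPM (-0.50) and Ldha at 1351 and 962 CPM (-0.49). In precursor-like cells Aldoa was at 690 and 398 CPM (-0.79, -0.96 to -0.63) and Eno1 at 461 and 289 CPM (-0.67), while Gapdh (-0.13) and Pkm (-0.11) were close to level. Aldoa was the member with the lowest ratio among those with at least 100 UMIs in the neurogenic-like, precursor-like and bipolar-like classes. The Aldoc ratios there (0.83 and 0.88 in neurogenic-like and precursor-like cells) came from 32 and 8 UMIs over both libraries, and their intervals (-0.31 to 2.07 and -1.48 to 3.57) included 0.

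Rod-like and cone-like cells had medians nearer 0, and some enzymes were level. In rod-like cells Ldha was at 3530 and 3093 CPM (-0.19, -0.22 to -0.16), Aldoa at 1217 and 1002 CPM (-0.28), Eno1 at 359 and 291 CPM (-0.30) and Aldoc at 37.1 and 23.6 CPM (-0.65, -1.01 to -0.29). Pkm (-0.01, -0.06 to 0.03) and Tpi1 (-0.02, -0.13 to 0.09) were level within counting error. Rod markers were at 34008 and 29510 CPM in these cells, erythrocyte markers at 2319 and 2.25 CPM, and mitochondrial genes took 7.48% and 4.94% of UMIs; the part of these was not tested. In cone-like cells Hk2 was at 66.1 CPM (49.9 to 85.8) and 34.4 CPM (25.5 to 45.4), a log2 ratio of -0.94 (-1.52 to -0.36), the lowest ratio of any member with 100 UMIs in a named class, and the Hk2 share of Hk1 and Hk2 UMIs was 50.5% and 31.2% (24.2 to 39.0). Cone Eno1 was at 472 and 348 CPM (-0.44), while Pkm was level (0.00) and Ldha was slightly higher, at 1871 and 1999 CPM (0.10, 0.01 to 0.18). The summed cone markers of these cells were at 27796 and 18872 CPM, their rod markers at 10625 and 14166 CPM, and their median depth was 8298 and 12840 UMIs. The part of these in the cone-like values was not tested.

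In RPC-like cells Eno1 was at 2010 and 1613 CPM (-0.32), Pgk1 at 878 and 691 CPM (-0.34), Ldhb at 199 and 155 CPM (-0.36) and Aldoa at 510 and 412 CPM (-0.31). Gapdh (-0.07) and Pkm (-0.03) were nearly level. Müller markers were at 9078 and 6851 CPM and rod markers at 245 and 590 CPM in these cells, and their part in the values was not tested. In amacrine-like cells, with 49 and 51 cells, Gapdh was at 4729 and 3839 CPM (-0.30, -0.38 to -0.22), and Ldha was higher, at 1158 and 1489 CPM (0.36, 0.21 to 0.52). Without marked doublets these ratios were -0.18 and 0.02, and as a mean over cells -0.29 and 0.08. The Ldhb share of amacrine-like cells was 25.3% (22.3 to 28.6) and 18.0% (15.8 to 20.3), but 27.4% and 25.9% without marked doublets (8 of 49 and 9 of 51 cells) and 28.5% and 26.2% as a mean over cells. Rod markers were at 2778 and 4753 CPM in these cells. Among named classes Ldha was highest in rod-like cells, and the part of rod RNA in the amacrine-like values was not tested.

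Microglia-like cells, which are not of the Cre lineage, had higher member levels in the Mettl3-CKO library. Pkm was at 821 CPM (701 to 956) and 1270 CPM (1133 to 1418), Gapdh at 2340 and 3290 CPM (0.49), Pgk1 at 297 and 502 CPM (0.76) and Tpi1 at 282 and 438 CPM (0.63). Of 8 members with 100 UMIs, 4 were higher past the fold (8.99% of 612 genes) and 0 lower (9.64%). The class held 33 and 30 cells with medians of 1493 and 1459.5 UMIs, rod markers at 797 and 141 CPM, and Xist UMIs in 0 and 2 cells. The part of these in the result was not tested. As a mean over cells, in which each cell counts equally, the ratios of Pkm (-0.20), Pgk1 (-0.27), Eno1 (-0.13) and Ldha (-0.15) changed sign. Of a list of 10 regulators, 1 had 100 UMIs in microglia-like cells: Txnip, which limits glucose uptake, at 564 and 229 CPM (-1.30). Its part in the member levels was not tested.

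In Müller-like cells the difference was not spread evenly over the cells. Over all Müller-like cells Eno1 was at 3494 and 2545 CPM (-0.46, -0.51 to -0.41), Ldhb at 471 and 319 CPM (-0.56, -0.71 to -0.42) and Aldoc at 158 and 102 CPM (-0.62, -0.87 to -0.37). Pgk1 (-0.33), Aldoa (-0.29), Tpi1 (-0.24), Ldha (-0.19), Gapdh (-0.18) and Pkm (-0.13) were lower by less, and the Hk2 ratio of 0.25 had an interval from -0.29 to 0.77. The Ldhb share was 26.4% and 21.7% (20.1 to 23.2), and the Aldoc share 14.7% and 12.1% (10.5 to 13.8). Müller markers summed to 19622 and 13200 CPM, and rod markers to 695 and 1492 CPM, in these cells. Among cells above the control median of the Müller marker score the median member ratio was -0.17.

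Reclustering the Müller-like cells, again without the 10 genes, gave 6 subclusters, of which 1 was made of 72 Mettl3-CKO cells and 1 control cell. The largest held 220 control and 64 Mettl3-CKO cells. Because the first of these was chosen for its library, its values are a description. Eno1 was at 3494 CPM in control cells, 2803 CPM in the other 230 Mettl3-CKO cells and 2063 CPM (a log2 ratio to control of -0.76) in the Mettl3-CKO-only cells. Aldoa was at 911, 882 and 492 CPM in the same order, Ldha at 1316, 1307 and 867 CPM, and Pkm at 1720, 1701 and 1343 CPM. For these 3 genes the other Mettl3-CKO cells were within counting error of the control (-0.05, -0.01 and -0.02), while the Mettl3-CKO-only cells were at -0.89, -0.60 and -0.36 against the control. Ldhb was at 471, 359 and 244 CPM, and Eno1, Ldhb and Aldoc (158, 99.6 and 108 CPM) were lower in the other Mettl3-CKO cells as well (-0.32, -0.39 and -0.66).

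Against all control Müller-like cells, 6 of 9 members were lower past the fold in the Mettl3-CKO-only cells (13.2% of 5670 genes) and 0 higher (15.2%), and against the other Mettl3-CKO cells 3 of 9 were lower (11.1% of 3647 genes) and 0 higher (9.98%). In the other Mettl3-CKO cells 1 of 10 members was lower than in the control past the fold, where 3.86% of genes were, and 0 higher (6.52%). Against only the 246 control cells of the deeper Müller-like cluster, Aldoa was at -0.87 and Eno1 at -0.74 in all 72 Mettl3-CKO-only cells. Within the largest subcluster the median member ratio between libraries was 0.00, with Aldoa at 0.17 (0.04 to 0.30), Eno1 at -0.12 (-0.19 to -0.05) and 0 of 9 members past the fold (5.38% of genes lower, 2.93% higher). The Mettl3-CKO-only cells included 43 with Xist and 27 with only a Y-linked UMI, with Eno1 at 1975 and 2198 CPM and Aldoa at 532 and 429 CPM, so cells of both sexes were among them. In these cells the Müller marker Rlbp1 was at 612 CPM against 1752 CPM in the control, and the nuclear RNA Malat1 at 53936 against 44671 CPM. Malat1 was at 45207 CPM in the cells with Xist and 68140 CPM in those with only a Y-linked UMI. Pgk1 was at 793 and 524 CPM in the same order. The part of the Rlbp1 and Malat1 differences in the enzyme levels was not tested.

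**Figure D5:**
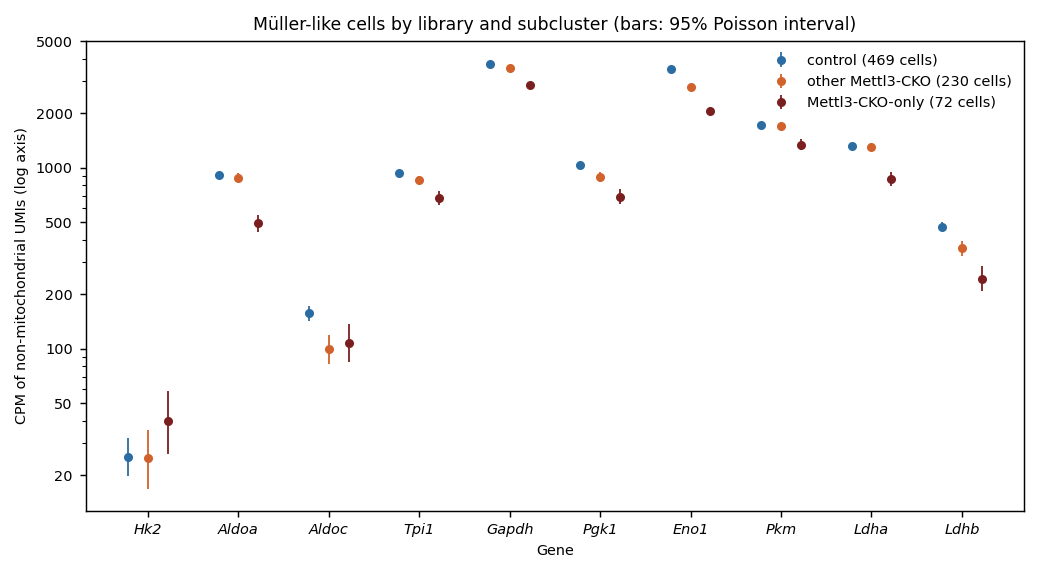
Level of each gene (CPM, log axis) in Müller-like cells of the control library, of the Mettl3-CKO-only subcluster and of the remaining Mettl3-CKO cells; bars are 95% Poisson intervals. For Aldoa, Ldha and Pkm the control and remaining Mettl3-CKO points nearly coincide and the Mettl3-CKO-only point is lower, 492 against 911 CPM for Aldoa.

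Values were also taken within male cells (a Y-linked UMI and no Xist), and with Xist-bearing Mettl3-CKO cells against all control cells. Cone-like, amacrine-like and microglia-like cells had too few male Mettl3-CKO cells for the first set (19, 6 and 11). With cells carrying a Y-linked UMI and no Xist in both libraries, the median member ratio was -0.25 in rod-like, -0.44 in precursor-like, -0.50 in neurogenic-like, -0.40 in RPC-like, -0.35 in Müller-like and -0.43 in bipolar-like cells, with 10 of 10, 7 of 9, 10 of 10, 9 of 9, 9 of 10 and 8 of 10 members lower. With Mettl3-CKO cells carrying Xist against all control cells it was -0.21, -0.38, -0.26, -0.08, -0.24 and -0.63. Pgk1, the member on chromosome X, was at -0.43 in the male Müller-like comparison and -0.26 with the Xist-bearing cells. The control pool holds almost no Xist-bearing cells, so sex and genotype cannot be told apart for the second set of values.

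The rest of the pathway was described from lists of further genes. Of 18 other glycolytic enzymes, 5 had at least 100 UMIs in bipolar-like cells and 4 of these were lower past the fold, with a median of -0.62 (8.83% of all genes were lower). Pfkp, a subunit of the rate-limiting phosphofructokinase, was at 164 and 47.8 CPM (-1.78, -2.24 to -1.34), Pgam1, the mutase between Pgk1 and Eno1, at 1194 and 765 CPM (-0.64), and Pfkl at 245 and 159 CPM (-0.62). Pfkp was also lower in Müller-like cells, at 249 and 140 CPM (-0.83, -1.04 to -0.62), and in RPC-like cells, at 96.9 and 52.5 CPM (-0.88, -1.23 to -0.54). In Müller-like cells 1 of 7 enzymes was lower (3.55% of all genes) and 1, Pfkm (24.6 and 37.0 CPM, 0.59), higher past the fold (9.26%), with a median of -0.23. In rod-like cells 0 of 8 passed the fold (1.87% of all genes lower, 5.05% higher) and the median was -0.06.

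The 16 genes of glucose and lactate transport and pyruvate entry had medians of -0.15 over 11 genes in Müller-like and -0.24 over 8 genes in bipolar-like cells, with 1 and 0 lower past the fold (3.55% and 8.83% of all genes). The glucose transporter gene Slc2a1 was level in Müller-like (528 and 537 CPM) and bipolar-like cells (75.2 and 75.0 CPM), and Bsg, the chaperone of lactate transporters, was lower in both (-0.25 and -0.41). Of 13 HIF targets outside glycolysis, 9 had 100 UMIs in bipolar-like cells and 4 were lower past the fold (median -0.44, 8.83% of all genes lower), including the mitophagy receptor gene Bnip3 (280 and 178 CPM, -0.65) and Vegfa (94.2 and 64.7 CPM, -0.54). The same list had a median of -0.10 over 9 genes in Müller-like and -0.02 over 9 genes in rod-like cells, with 0 past the fold in both (3.55% and 1.87% of all genes lower, 9.26% and 5.05% higher). Hif1a was at 352 and 292 CPM in bipolar-like and 169 and 167 CPM in Müller-like cells (-0.27 and -0.02). Of the 10 regulators, 3 had 100 UMIs in bipolar-like cells, and 1 was higher past the fold (7.21% of all genes), Txnip (104 and 196 CPM, 0.92). In RPC-like cells 2 of 4 were higher past the fold (8.89% of all genes), among them Txnip (223 and 357 CPM, 0.68). In both classes 0 were lower past the fold (8.83% and 2.62% of all genes). The part of Txnip in the member levels was not tested. Dissociation response genes, which papain digestion can induce, had a median of -0.15 over 11 genes in Müller-like and -0.01 over 10 genes in bipolar-like cells.

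Across the 18 points given by 9 classes in 2 libraries, the gene whose log2(CPM + 10) most resembled Eno1 was Gstm5 (Pearson r of 0.97), followed by Cox4i2 (0.953), among 11076 genes. Pgk1 was closest to Mif (0.973), Ldhb to Slc25a1 (0.95), Tpi1 to Gstm7 (0.943), Ldha to Npepps (0.938) and Hk2 to Asph (0.927). Aldoc was closest to Ccnd3 (0.905), Aldoa to Vps28 (0.857), Pkm to Zfand1 (0.854) and Gapdh to Eif5a (0.847). The second genes for the other members were Kctd17 for Pgk1 (0.944), Cotl1 for Ldhb (0.907), Tgfb2 for Tpi1 (0.912), C1qtnf12 for Ldha (0.936), Bscl2 for Hk2 (0.915), Sept4 for Aldoc (0.883), Hcfc1r1 for Aldoa (0.815), Asb13 for Pkm (0.851) and Mgat5 for Gapdh (0.844). These points share libraries and depth, so the values describe likeness of pattern only.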

How the data were processed

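Reads were trimmed with fastp, aligned to mm10 and counted per gene and cell with Cell Ranger 3.1.0, per the study's methods and the submitters' processing notes, which also name Seurat 3.1. The deposited values are raw UMI counts. Both matrices held fewer entries than their size lines announce, leaving 3994 of 5995 control and 3109 of 6992 Mettl3-CKO barcodes as complete cells; the others were not analysed here. The study's filter (over 200 genes, under 20% mitochondrial UMIs) would leave out 237 and 86 of the analysed cells, which were kept. The 2000 most variable genes (members and further genes kept out, 90 in all), 10 principal components, 20 neighbours and Leiden clustering at resolution 1 (scikit-learn 1.9.0, igraph 0.11.9, leidenalg 0.10.2) gave the clusters, which were named where at least 3 markers of 1 of 16 lists were 1.5-fold over the median cluster and in 20% of cells, and that list led the 10 top genes. Doublets were not removed; as an alternative, about 5% of cells with the highest Scrublet scores were. Levels carry exact Poisson, ratios exact conditional binomial and shares Clopper-Pearson 95% intervals (scipy 1.17.1), which cover counting error only and whose code was tested on simulated data. The text names all members, genes of the other lists with at least 100 UMIs in the class and up to 12 a list by control level, and for each member the 2 most alike genes. Members and lists were chosen with earlier results of these data known. The alternatives were other scalings, cell filters, class definitions, folds and count minimums.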

Additional observations from a re-analysis of the deposited data

Results flagged for a closer look

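The summed level of the members was higher in the Mettl3-CKO library in microglia-like cells (log2 ratio 0.46, counting interval 0.36 to 0.56) and lower in the other 8 classes, from -0.50 in bipolar-like to -0.12 in amacrine-like cells. It is listed because the only sample of each group moved one way in this class and the opposite way in the others; the difference was not tested. As a mean over cells, 4 of the members were lower in microglia-like cells.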

How the results depend on the processing

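With 1 library a group, no replicate could be left out, and no paired analysis was possible because both groups hold 1 library and no result comes from a test. The median member ratio kept its sign in all 9 classes under every alternative run, except that it was 0.00 in the largest Müller-like subcluster, a setting chosen after seeing the data like the one without the Mettl3-CKO-only subcluster (-0.11) and the one without low-depth clusters. In Müller-like cells it was -0.38 as a mean of per-cell CPM, -0.47 with each library clustered on its own and -0.17 above the marker score median. Without marked doublets it was -0.09 in amacrine-like cells. The mean of per-cell CPM gave -0.12 in cone-like and 0.11 in microglia-like cells. Cells with a Y-linked UMI and no Xist in both libraries gave -0.50 in neurogenic-like cells. Mettl3-CKO cells with Xist against all control cells gave -0.26 in neurogenic-like and -0.08 in RPC-like cells. Counts of members lower at a log2 fold of 0.25 and of 1 were 4 and 0 in rod-like, 5 and 0 in cone-like, 5 and 0 in precursor-like, 7 and 0 in neurogenic-like, 5 and 0 in Müller-like and 8 and 0 in bipolar-like cells, and 4 in RPC-like and 3 in amacrine-like cells at 0.25, where 1 amacrine-like member was higher. A count minimum of 20 gave 2 lower in rod-like, 2 in cone-like and 1 in RPC-like and 1 higher in neurogenic-like cells, and one of 500 gave 0 lower in rod-like and cone-like cells. In microglia-like cells 0 were higher at a fold of 1 or a minimum of 500. The Müller-like Aldoc share was 12.2% and 9.86% as a mean over cells. The Ldhb share was 24.4% in Mettl3-CKO cells as a mean over cells, and 27.8% and 24.2% without marked doublets. The amacrine-like Ldhb shares were 27.4% and 25.9% without them and 17.6% and 13.3% with cells named by their own markers. Single ratios that changed sign were Pgk1 (-0.27), Eno1 (-0.13), Pkm (-0.20) and Ldha (-0.15) in microglia-like cells as a mean of per-cell CPM, Ldha in bipolar-like cells named by their own markers (0.13), and Aldoa (0.17), Tpi1 (0.11), Gapdh (0.04) and Pkm (0.12) in the largest Müller-like subcluster; the cause was not tested. Of 1020 ratios recomputed over all alternatives, 905 stayed within the counting interval. Clusters of each library alone gave no amacrine-like cells in the Mettl3-CKO library. Depth limits Hk2 and Aldoc, whose intervals span 0 in most classes.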
